A study of Homo sapiens with 9 samples.

Results

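The genes described here take iron into the cell, store it, release it from storage or sense it: TFRC, TF, STEAP3, SLC11A2 and SLC39A14 for uptake, FTH1, FTL and NCOA4 for storage, and IREB2 for sensing. They were taken from a list of 10 symbols, 9 of which had a row among the 18364 genes of the deposited table. The other symbol, SLC40A1, encodes the iron exporter ferroportin and is not analysed here, so no cellular iron exporter is among the values below. The measurements are RNA sequencing of intracranial tumours formed by LN229, an established human glioblastoma line, in nude mice, hosts that lack mature T cells but keep macrophages and other immune cells. In 6 tumours the cells carried TAZ-4SA, an activated TAZ, which is a transcriptional co-activator, and in 3 tumours they carried the empty vector (EV). All 9 tumours were taken at the terminal stage, and the sources used here give neither the promoter of the construct nor the number of clones behind each line. The comparison asks which genes change when TAZ is active.

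Cells import iron mainly as transferrin-bound ferric iron. The transferrin receptor carries it into endosomes, a STEAP reductase converts it to ferrous iron, and the transporter DMT1 moves it into the cytosol. Surplus iron is caged in ferritin, a shell of heavy (FTH1) and light (FTL) chains, from which NCOA4 delivers it to lysosomes for release. The iron regulatory proteins IRP1 (ACO1) and IRP2 (IREB2) bind hairpins called iron-responsive elements (IREs) in mRNAs when iron is low. Binding in a 5′ untranslated region blocks ferritin translation, and binding in the 3′ untranslated region of TFRC protects that mRNA from decay. Transcript levels of TFRC can therefore follow the iron status of a cell, while ferritin is set largely at translation, which these data do not measure.

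The hairpins that link IREB2 to its targets are shown because they mark which of the 9 mRNAs an IRE match ties to iron sensing. The longest annotated principal transcript (GENCODE release 29, GRCh38) was searched for each gene, on the transcript strand, for C, 5 bases, the loop letters CAGTGN with N not G, and 5 bases that pair with the first 5, G-T pairs allowed. Each sequence below is 29 bases long, is written 5′ to 3′ in DNA letters, and has the 6 loop bases in capitals.
FTH1, 5′ untranslated region, chr11:61967574-61967602, minus strand: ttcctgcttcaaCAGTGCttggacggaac
FTL, 5′ untranslated region, chr19:48965335-48965363, plus strand: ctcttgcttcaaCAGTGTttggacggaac
TFRC, 3′ untranslated region, chr3:196050979-196051007, minus strand: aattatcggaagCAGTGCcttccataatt
TFRC, 3′ untranslated region, chr3:196050575-196050603, minus strand: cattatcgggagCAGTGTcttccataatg
TFRC, 3′ untranslated region, chr3:196050510-196050538, minus strand: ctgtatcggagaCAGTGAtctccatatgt
TFRC, 3′ untranslated region, chr3:196050463-196050491, minus strand: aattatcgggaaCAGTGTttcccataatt
A match was present in 170 of 19656 genes searched (0.86%), and TFRC was the 1 gene among them with 4 or more. The principal transcript of TF, 20602 bases long, held a single match in its 3′ untranslated region. The other members had none under this rule, which says only that these letters and pairs are not in the transcript searched.

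The 6 TAZ-4SA libraries held 3144861 to 31468135 reads and the 3 EV libraries 17314672 to 21576264 reads over the genes of the table. Detection differed with the group: the number of genes without a read was 2990 to 7365 per TAZ-4SA library and 505 to 622 per EV library. Pairs of TAZ-4SA libraries had correlations across genes of 0.632 to 0.776 in log2 CPM, and pairs of EV libraries of 0.955 to 0.985. WWTR1, which encodes TAZ, stood at 218 CPM at the lowest, 333 at the median and 449 at the highest in TAZ-4SA tumours, against 123, 119 and 116 CPM in EV tumours 1 to 3. The median log2 fold change over the 15578 genes tested was -0.85 (-0.15 after quantile normalization), so a value near 0 lies above most genes. Over all genes 1405 were called higher and 2079 lower in TAZ-4SA, and 1920 and 1624 after quantile normalization.

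Of the 9 iron genes, TFRC and IREB2 were higher in the TAZ-4SA tumours, TF was lower, and the other 6 were not called (limma on log2 CPM, Benjamini-Hochberg adjusted p under 0.05 over all genes tested). All 9 passed the filter on low values. The called share was 33.3% of the 9, where 22.4% of all genes tested were called, 9.02% higher and 13.3% lower. The groups did not overlap for the same 3 genes, and for 32% of all genes tested, 10.8% higher and 21.3% lower. With 9 genes these shares do not single the set out. Their median log2 fold change was 0.58, beside -0.85 over all genes. All 9 also passed the stricter filter at 10 CPM, and the 10447 genes kept there had a median of -0.41. That value is the closer reference for the 9, because -0.85 also covers genes that the stricter filter removes.

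TFRC, the transferrin receptor (Entrez 7037, chromosome 3 from 196049284 to 196082090, GRCh38), was the member with the largest rise. TAZ-4SA tumours had 110 CPM at the lowest, 168 at the median and 266 at the highest, against 31.1, 37.9 and 55.8 CPM in EV tumours 1 to 3. Tumour 3 was the lowest of the TAZ-4SA group and tumour 2 the highest, and every TAZ-4SA value lay above every EV value. The mean of 178 ± 52.4 CPM in TAZ-4SA (SD, n = 6) was 4.29 times that of 41.6 ± 12.8 CPM in EV (SD, n = 3). On the log2 scale the difference was 2.09 ± 0.33 (SE; limma adjusted p = 0.001059), larger than that of 94.3% of all genes tested. The call held without any 1 of the 9 tumours, with differences between 1.90 and 2.32. In the shallowest TAZ-4SA library, tumour 6, TFRC still had 507 reads, far above a floor of 3 reads, which covers counting error only.

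IREB2, which encodes IRP2 and so acts on the hairpins above (Entrez 3658, chromosome 15 from 78437431 to 78501453), was the second member called higher. Its level ran from 54.0 CPM over a median of 83.3 to 104 CPM in TAZ-4SA tumours, against 33.7, 32.5 and 36.5 CPM in EV tumours. Tumour 5 was lowest and tumour 6 highest, and both stood above all EV tumours. Mean levels were 80.4 ± 19.9 CPM over the TAZ-4SA tumours and 34.2 ± 2.05 CPM over the EV tumours, a log2 difference of 1.19 ± 0.33 (SE; limma adjusted p = 0.02148). That call was not reached without EV tumour 1, 2 or 3 (limma adjusted p = 0.1037, 0.1081 and 0.06945), although the difference stayed at 1.15 to 1.24.

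TF, which encodes transferrin, the iron carrier of plasma and in brain a product mainly of oligodendrocytes and the choroid plexus (Entrez 7018, chromosome 3 from 133661998 to 133796641), was close to absent in most TAZ-4SA tumours. TAZ-4SA tumours 1, 2, 3 and 6 had 0 reads, tumour 5 had 1 read and tumour 4 had 338 reads, whereas EV tumours 1 to 3 had 3381, 2389 and 2935 reads. Scaled to depth, tumour 4 stood at 12.1 CPM and tumour 5 at 0.280 CPM, against 158, 139 and 189 CPM in EV. Tumour 4 thus carried nearly all the signal of its group and still lay far below the EV tumours. A count of 0 allows up to 3 reads, which is 0.160 to 0.917 CPM in the 4 libraries without a read, counting error only. The log2 fold change was -8.79 ± 1.57 (SE; limma adjusted p = 0.002184), lower than that of all but 0.1% of genes tested, and -9.81 without TAZ-4SA tumour 4. Because the scale includes a prior of 0.145 CPM and many genes drop to 0 reads in these libraries, the levels are the firmer description. SRPRB, which shares exon positions with TF on the same strand, averaged 32.8 ± 26.6 CPM in TAZ-4SA tumours against 50.2 ± 14.9 CPM in EV tumours and was not called (limma adjusted p = 0.277). In bulk tumours fewer cells of a type and less RNA per cell cannot be told apart.

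The summed level of oligodendrocyte markers was lower in every TAZ-4SA tumour than in any EV tumour, as was TF. Of 12 markers listed, 10 were in the table, and their summed level was 53.7 to 458 CPM in TAZ-4SA tumours, against 839 to 936 CPM in EV tumours. GJB1, a gap junction gene, averaged 0.395 ± 0.649 CPM over the TAZ-4SA tumours and 129 ± 55.0 CPM over the EV tumours, MAG, a myelin adhesion protein gene, at 1.35 ± 2.11 CPM in TAZ-4SA against 41.8 ± 8.33 CPM in EV, and MYRF, a myelin transcription factor gene, at 24.5 ± 18.1 CPM in TAZ-4SA against 142 ± 38.2 CPM in EV. These 3 were called lower of 8 tested, beside 13.3% of all genes tested, 0 were higher, and MAG was not called without EV tumour 1 (limma adjusted p = 0.05174). MAG had a log2 fold change of -6.54, and -7.16 and -7.22 without TAZ-4SA tumours 3 and 5. CNP, the most abundant of the list at 29.5 ± 27.0 CPM over the TAZ-4SA tumours and 359 ± 21.2 CPM over the EV tumours, was not called. MOG and MOBP, which define mature oligodendrocytes, were at 0 reads in all 6 TAZ-4SA tumours, while in EV MOG averaged 0.111 ± 0.0570 CPM and MOBP 0.680 ± 0.238 CPM. The floor of 3 reads lay above that EV level in 5 of 6 TAZ-4SA libraries for MOG and 2 of 6 for MOBP, so a lower level of MOG was not detectable at this depth. TAZ-4SA tumour 4, with 338 TF reads, had a summed marker level of 53.7 CPM, close to 54.5 CPM in tumour 2, with 0 TF reads. The line is human and the host is a mouse, and whether mouse reads were set apart is not given. Marker reads of the tumour cells and mouse host reads counted under human symbols therefore cannot be told apart. The part of either in the TF difference was not tested.

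**Figure D1:**
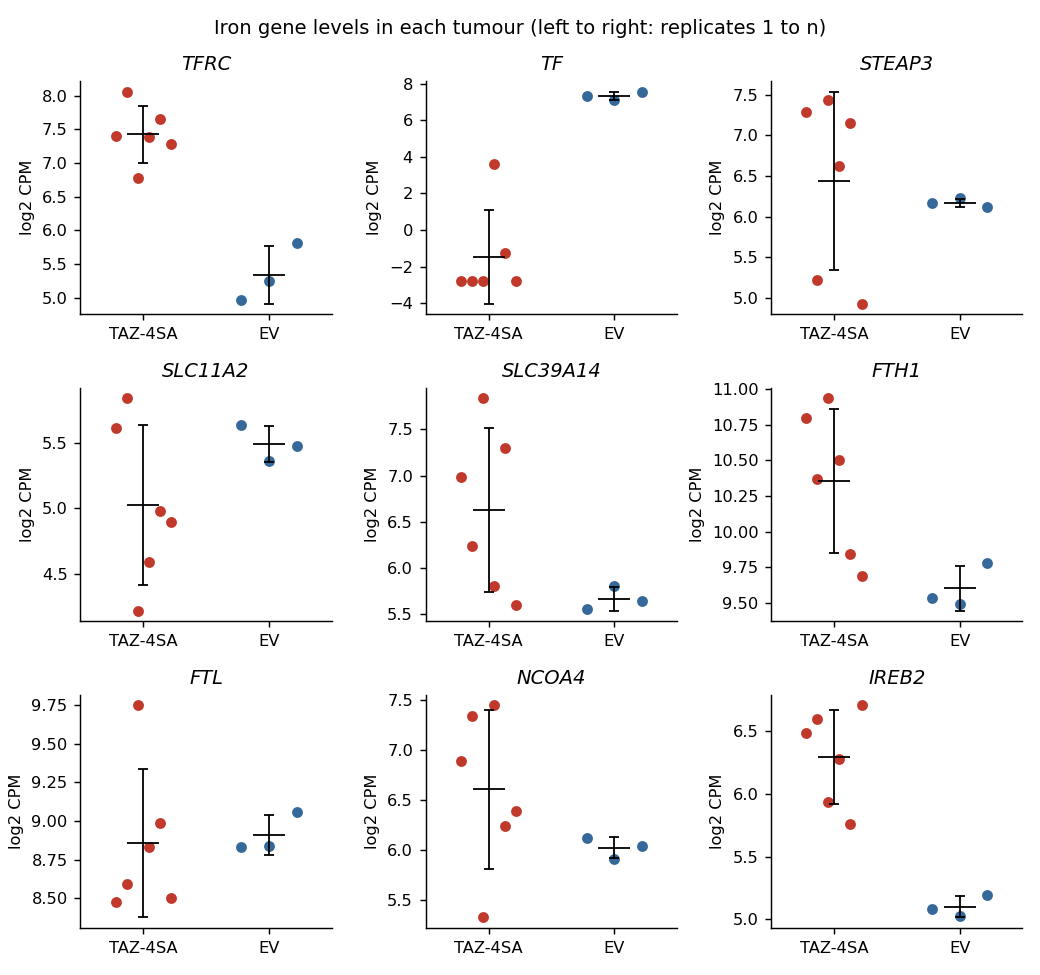
Level of each of the 9 iron genes in every tumour, as log2 CPM with the deposited prior of 0.145 CPM; points are tumours, the black line and bars give mean ± SD, with TAZ-4SA (n = 6) left of EV (n = 3). TFRC, TF and IREB2 are the genes whose groups do not overlap, and 4 of the TAZ-4SA points for TF lie at the floor of the scale.

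STEAP3, SLC39A14 and SLC11A2, the uptake genes other than TFRC and TF, spread widely among TAZ-4SA tumours and were not called. STEAP3, the endosomal ferrireductase that works with TFRC (Entrez 55240, chromosome 2 from 119223834 to 119265652), had 30.3, 120 and 173 CPM at the lowest, median and highest TAZ-4SA tumour, against 71.5, 74.6 and 69.1 CPM in EV. Tumours 2 and 6 lay below all EV tumours and the other TAZ-4SA tumours above them, so the log2 fold change of 0.27 ± 0.56 (limma adjusted p = 0.7427) averages values on both sides. STEAP3-AS1, which shares exon positions on the opposite strand, had 4.34 CPM in TAZ-4SA tumour 2, 0 reads in the other TAZ-4SA tumours and 0.387 to 0.656 CPM in EV, and the library chemistry does not mark strand.

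SLC39A14, which encodes ZIP14, an importer of iron that is not bound to transferrin (Entrez 23516, chromosome 8 from 22367278 to 22434129), had a similar spread. Its TAZ-4SA levels were 48.3 CPM at the lowest, 101.1 at the median and 228 at the highest, against 46.9, 55.8 and 49.9 CPM in EV. Tumour 6 was lowest and tumour 3 highest, and tumour 6 lay within the EV range. The log2 fold change was 0.96 ± 0.48 (limma adjusted p = 0.1646). STEAP3 and SLC39A14 shared their extremes, with tumour 3 the highest and tumour 6 the lowest for both. SLC11A2, which encodes the endosomal transporter DMT1 (Entrez 4891, chromosome 12 from 50952263 to 51028886), stood at 18.4, 30.5 and 57.3 CPM at the lowest, median and highest TAZ-4SA tumour, against 49.7, 41.1 and 44.4 CPM in EV. Here tumour 3 was the lowest and tumour 2 the highest, and the log2 fold change was -0.47 ± 0.43 (limma adjusted p = 0.4455).

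Ferritin transcripts were the most abundant of the 9. FTH1, the heavy chain with ferroxidase activity (Entrez 2495, chromosome 11 from 61964285 to 61967634), had 827 CPM at the lowest, 1385 at the median and 1956 at the highest in TAZ-4SA tumours, against 742, 720 and 879 CPM in EV tumours. Only TAZ-4SA tumour 6 fell within the EV range. The mean was 1.76 times higher in TAZ-4SA, a log2 difference of 0.75 ± 0.29 that missed the threshold (limma adjusted p = 0.08073). FTH1 was called without TAZ-4SA tumour 5 (limma adjusted p = 0.04913) or 6 (limma adjusted p = 0.04503). It was also called after quantile normalization (limma adjusted p = 0.01034) and with limma-voom (adjusted p = 0.03267). Of 22 alternative fits, 7 called it and 15 did not. The difference was smallest, 0.51, without TAZ-4SA tumours 2, 3 and 4 (limma adjusted p = 0.2695), so FTH1 lies at the edge of the call. FTH1 has 25 annotated pseudogenes in GENCODE, of which FTH1P3 had a row at 2.10 ± 3.54 CPM over the TAZ-4SA tumours and 0.842 ± 0.172 CPM over the EV tumours. The treatment of reads shared with the other copies is not given in the sources used, so FTH1 and FTL values are uncertain to that extent. BEST1, which overlaps FTH1 on the opposite strand, averaged 21.95 ± 12.2 CPM over the TAZ-4SA tumours and 21.9 ± 5.40 CPM over the EV tumours.

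FTL, the light chain (Entrez 2512, chromosome 19 from 48965309 to 48966879), differed less between groups than among tumours. Its levels were 355, 421 and 861 CPM at the lowest, median and highest TAZ-4SA tumour, against 455, 457 and 533 CPM in EV. TAZ-4SA tumours lay on both sides of the EV range, with tumour 3 the highest. The log2 fold change of -0.05 ± 0.29 (limma adjusted p = 0.9115) took either sign across scalings and left-out tumours, from -0.23 to 0.025 when 1 tumour was left out and 0.12 after quantile normalization. FTL has 16 annotated pseudogenes, and none had a row.

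Per kilobase of principal transcript, FTH1 exceeded FTL in every tumour. The ratio of their levels in CPM per kilobase was 1.54 to 4.28 in TAZ-4SA tumours, lowest in tumour 5 and highest in tumour 1, against 1.39, 1.35 and 1.41 in EV tumours. The mean ratio was 2.56 ± 0.991 (SD, n = 6) in TAZ-4SA and 1.38 ± 0.0331 (SD, n = 3) in EV, and the groups did not overlap. The ratio of TFRC to FTH1 on the same scale averaged 0.0296 ± 0.0134 in TAZ-4SA and 0.0107 ± 0.00219 in EV. TAZ-4SA tumour 3, with the lowest TFRC and the highest FTH1 of its group, lay inside the EV range at 0.0114. With the longest principal transcripts as lengths (1229 bases for FTH1), the ratio of FTH1 to FTL was 1.29 to 3.58 in TAZ-4SA and 1.12 to 1.18 in EV. Both ratios were chosen after the values were known and are descriptions with no test.

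**Figure D2:**
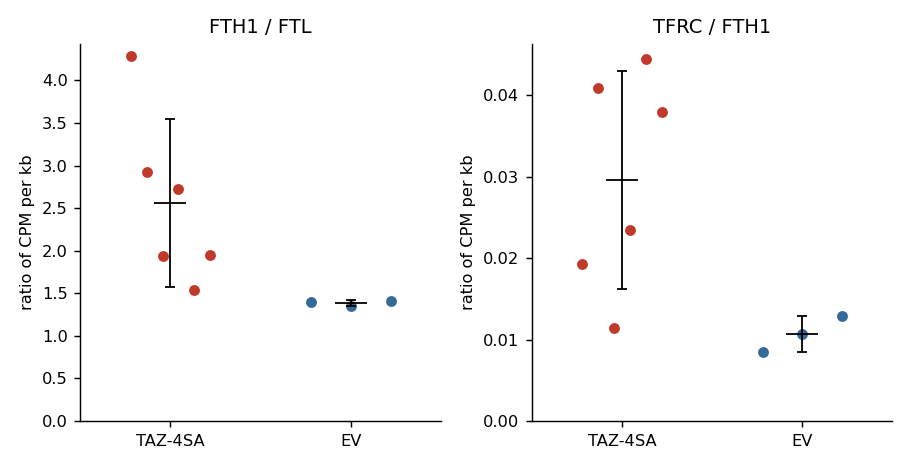
Ratio of FTH1 to FTL and of TFRC to FTH1 within each tumour, from levels in CPM per kilobase of principal transcript; points are tumours and the black line and bars give mean ± SD, with TAZ-4SA (n = 6) left of EV (n = 3). All TAZ-4SA ratios of FTH1 to FTL lie above those of EV, while 1 TAZ-4SA ratio of TFRC to FTH1 lies inside the EV range.

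NCOA4, the receptor that carries ferritin to lysosomes (Entrez 8031, chromosome 10 from 46005088 to 46030623), had 39.9 CPM at the lowest, 100.9 at the median and 174 at the highest in TAZ-4SA tumours, against 69.3, 59.9 and 65.4 CPM in EV. The TAZ-4SA tumours spanned the EV range on both sides, with tumour 3 alone below it. Its log2 fold change was 0.58 ± 0.44 (limma adjusted p = 0.3519). Tumour 3 thus had the lowest NCOA4, TFRC and SLC11A2 of its group together with the highest FTH1, FTL, STEAP3 and SLC39A14. Spread relative to the mean was 24.8% (IREB2) to 60.4% (SLC39A14) in TAZ-4SA for the 8 genes other than TF, against 3.83% (STEAP3) to 30.7% (TFRC) in EV.

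On the scale of CPM per kilobase, which allows genes to be compared within a group, the order of mean levels in TAZ-4SA tumours was FTH1 at 1339 ± 440, FTL at 556 ± 219, NCOA4 at 47.2 ± 22.7, STEAP3 at 36.7 ± 21.2, TFRC at 35.1 ± 10.3, SLC39A14 at 24.8 ± 15.0, IREB2 at 12.7 ± 3.14 and SLC11A2 at 8.46 ± 3.65 (SD, n = 6). From NCOA4 to IREB2 each gene lay within 1 SD, the larger of the pair, of the next. The EV order was FTH1 at 760 ± 83.8, FTL at 548 ± 50.5, NCOA4 at 28.1 ± 2.06, STEAP3 at 24.8 ± 0.950, SLC39A14 at 10.96 ± 0.972, SLC11A2 at 10.9 ± 1.04, TFRC at 8.20 ± 2.52 and IREB2 at 5.39 ± 0.323 (SD, n = 3), where only SLC39A14 and SLC11A2 lay within 1 SD of each other. By mean, TFRC stood below SLC39A14 and SLC11A2 in EV and above both in TAZ-4SA. In EV tumour 3, however, TFRC at 10.995 lay above SLC39A14 at 10.752 and SLC11A2 at 10.75. In TAZ-4SA tumour 3 TFRC at 21.7 lay below SLC39A14 at 49.2. In the other tumours TFRC kept the order of the means against both genes. TF was left out of this order because its principal transcript, at 20602 bases, is far longer than a typical mRNA of its coding size.

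**Figure D3:**
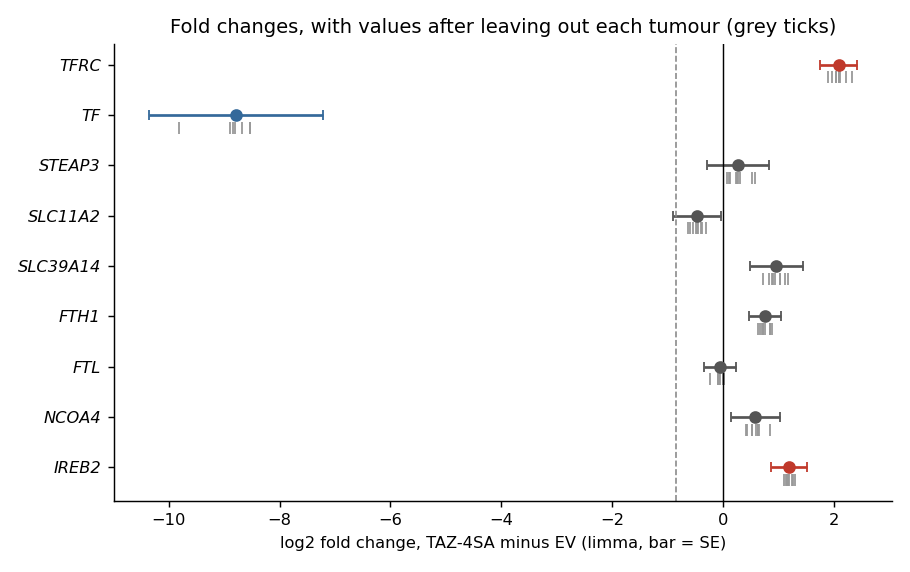
Log2 fold change of each iron gene, TAZ-4SA minus EV, from limma, with bars for the SE; red is called higher, blue called lower and grey not called. Grey ticks are the values after leaving out each tumour in turn, and the dashed line is the median of all genes tested at -0.85. TFRC and IREB2 lie above 0 in every such fit and TF lies between -9.81 and -8.53.

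Other genes of iron handling were examined through 5 lists of 70 genes, of which 64 had a row and 62 were tested. Of these, 5 were higher, 5 lower and 52 not called, 16.1% called beside 22.4% of all genes tested. The list of iron sensing and IRE-bearing transcripts had 3 of 9 higher and 0 lower, beside 9.02% and 13.3% of all genes tested. Its median log2 fold change was 1.05. ACO1, which encodes IRP1, the partner of IREB2, averaged 91.2 ± 16.2 CPM over the TAZ-4SA tumours and 34.5 ± 4.71 CPM over the EV tumours (log2 fold change 1.39 ± 0.31, limma adjusted p = 0.00702), was higher in 6 of 6 tumours than in any EV tumour, and kept its call without any 1 tumour. Both genes for iron regulatory proteins were therefore higher in TAZ-4SA. EPAS1, which encodes HIF-2 alpha and carries an IRE, averaged 53.4 ± 24.2 CPM over the TAZ-4SA tumours and 16.3 ± 3.28 CPM over the EV tumours. PFN2, a profilin gene, averaged 188 ± 57.3 CPM in TAZ-4SA against 73.9 ± 26.6 CPM in EV. EPAS1 was not called without EV tumour 1, 2 or 3, nor PFN2 without EV tumour 1 or 2. FBXL5, which targets IRP2 for degradation when iron is ample, was at 43.1 ± 25.7 CPM over the TAZ-4SA tumours and 17.2 ± 3.34 CPM over the EV tumours and was not called (limma adjusted p = 0.281).

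Among storage, chaperone and ferritinophagy partners 1 of 7 was higher and 1 lower, beside 9.02% and 13.3% of all genes tested. The median log2 fold change of these partners was -0.87. TAX1BP1, an autophagy receptor that acts with NCOA4 in ferritin turnover, averaged 472 ± 194 CPM over the TAZ-4SA tumours and 137 ± 27.7 CPM over the EV tumours (log2 fold change 1.68 ± 0.38, limma adjusted p = 0.00748) and kept its call without any 1 tumour. PCBP1, a chaperone that loads iron into ferritin, averaged 255 ± 36.4 CPM over the TAZ-4SA tumours and 406 ± 17.1 CPM over the EV tumours, a log2 fold change of -0.68 ± 0.22 (limma adjusted p = 0.0464). It was not called without TAZ-4SA tumour 1, 4 or 6 or EV tumour 1, 2 or 3, with adjusted p up to 0.1698.

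Uptake partners had 0 of 14 higher and 1 lower, beside 9.02% and 13.3% of all genes tested, with a median log2 fold change of -0.68. SLC22A17, a receptor for the siderophore carrier lipocalin 2, had 0 reads in 3 TAZ-4SA tumours and 158 CPM in tumour 5, with a mean of 31.1 ± 62.4 CPM over the TAZ-4SA tumours and 193 ± 33.7 CPM over the EV tumours. Its limma adjusted p of 0.0495 was lost without TAZ-4SA tumour 1, 2, 4 or 6 or EV tumour 1, 2 or 3, and its log2 fold change of -6.47 ranged from -7.70 without TAZ-4SA tumour 5 to -5.69 without tumour 1, 2 or 4. TFR2, the second transferrin receptor, averaged 4.66 ± 5.65 CPM over the TAZ-4SA tumours and 13.3 ± 1.83 CPM over the EV tumours and was not called.

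The export and hepcidin list had 0 of 7 higher and 2 lower, with a median log2 fold change of -2.01. BMP6, an inducer of hepcidin in liver, had 0 reads over the 6 TAZ-4SA tumours and 161 over the EV tumours (limma adjusted p = 0.00329). Its EV mean of 3.07 CPM was 7.33 times the mean floor of 3 reads per TAZ-4SA library, which covers counting error only. Many genes drop to 0 reads in these libraries, such as ISCU, at 95.4 CPM in TAZ-4SA tumour 1 and 0 reads in tumour 3. The floor is therefore no firm bound on the BMP6 level. After quantile normalization BMP6 was not called (limma adjusted p = 0.1729), with a log2 fold change of -1.19 in place of -4.40. FURIN, a protease that processes hepcidin among many substrates, averaged 93.2 ± 41.2 CPM over the TAZ-4SA tumours and 235 ± 90.3 CPM over the EV tumours, and was not called without TAZ-4SA tumour 1 or 4 or EV tumour 1, 2 or 3 (adjusted p between 0.05005 and 0.1419). Ceruloplasmin (CP), the ferroxidase paired with iron export, was low at 0.784 ± 1.19 CPM over the TAZ-4SA tumours and 2.57 ± 1.07 CPM over the EV tumours.

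In the list of mitochondrial iron, iron-sulphur cluster and haem genes 1 of 25 was higher and 1 lower. Over all genes tested 9.02% were higher and 13.3% lower. The median log2 fold change of the list was -0.56. SLC25A37, which encodes the mitochondrial iron importer mitoferrin-1, averaged 125 ± 59.9 CPM over the TAZ-4SA tumours and 47.8 ± 11.3 CPM over the EV tumours (limma adjusted p = 0.0415), a call lost without TAZ-4SA tumour 1, 2, 3 or 6 or EV tumour 1, 2 or 3. ALAD, an early enzyme of haem synthesis, averaged 24.3 ± 11.2 CPM over the TAZ-4SA tumours and 83.7 ± 11.99 CPM over the EV tumours (log2 fold change -1.92 ± 0.49, limma adjusted p = 0.0149), and was not called without EV tumour 1 or 2. HMOX1, the enzyme that frees iron from haem, averaged 28.7 ± 32.6 CPM in TAZ-4SA against 16.2 ± 5.09 CPM in EV and was not called.

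**Figure D4:**
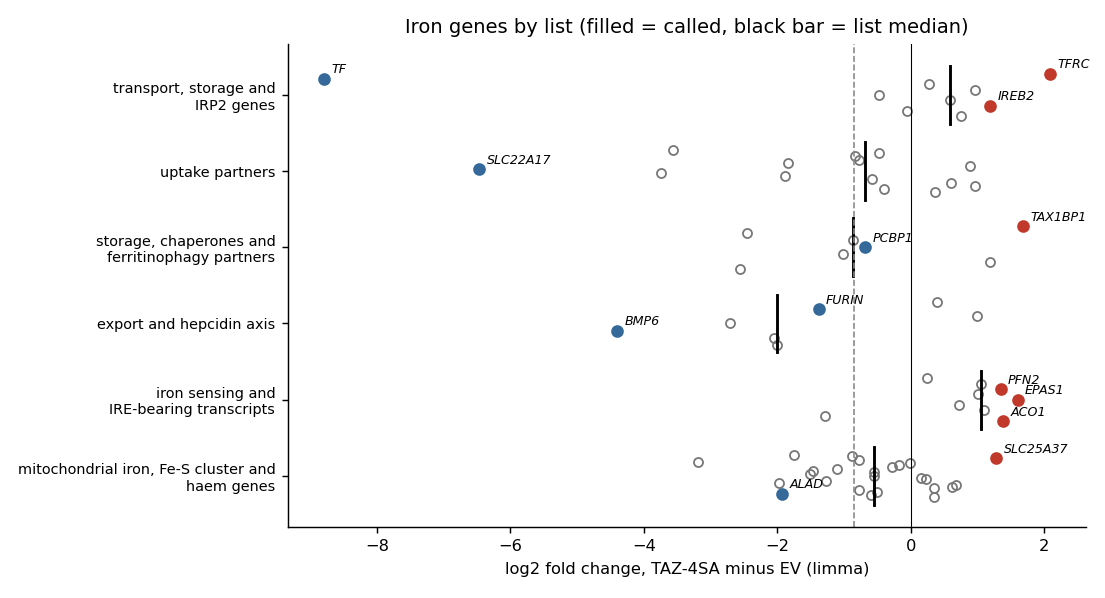
Log2 fold change, TAZ-4SA minus EV, of every tested gene of the 9 iron genes and of 5 further iron lists; filled points are called (red higher, blue lower), black bars are list medians and the dashed line is the median of all genes at -0.85. The list of iron sensing and IRE-bearing transcripts has its median at 1.05, and 3 of its 9 genes are called higher, beside 9.02% of all genes tested.

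Levels of other brain and host cell markers are given because macrophages, glia and neurons also express iron genes. Microglia and macrophage markers, 7 of 12 in the table, summed to 65.7 to 178 CPM in TAZ-4SA tumours and 28.1 to 39.5 CPM in EV tumours. CD68 made up most of that sum in the TAZ-4SA tumours but not in EV tumours 1 and 3. It averaged 88.2 ± 38.2 CPM over the TAZ-4SA tumours and 16.4 ± 5.51 CPM over the EV tumours, where TMEM119 averaged 12.7 ± 2.01 CPM. CD68 was the 1 marker called of 5 tested, beside 22.4% of all genes tested. PTPRC and TYROBP were each at 0 reads in 5 of 6 TAZ-4SA tumours and averaged 0.0350 and 0.0215 CPM in EV. P2RY12 was at 0 reads in all TAZ-4SA tumours and at 0.131 CPM in EV, under the floor of 3 reads in 5 of 6 TAZ-4SA libraries. Astrocyte markers summed to 120 to 270.1 CPM across TAZ-4SA tumours and 321 to 391 CPM in EV, with GJA1 called higher (46.0 ± 14.6 CPM in TAZ-4SA against 18.7 ± 2.68 CPM in EV, not called without TAZ-4SA tumour 2, 3 or 6 or EV tumour 1, 2 or 3) and S100B lower (2.95 ± 4.43 CPM in TAZ-4SA against 208 ± 43.4 CPM in EV, log2 fold change -8.06, and -8.81 and -8.67 without TAZ-4SA tumours 1 and 6). Without S100B the astrocyte sum was 120 to 269 CPM across TAZ-4SA tumours and 129 to 158 CPM across EV tumours. Neuron markers summed to 84.5 to 1314 CPM across TAZ-4SA tumours and 31.1 to 142 CPM in EV, with 850 CPM in TAZ-4SA tumour 5 and 1314 CPM in tumour 6. SNAP25, the most abundant neuron marker, was not called, and SYT1 was called higher at 78.7 ± 73.4 CPM over the TAZ-4SA tumours and 5.53 ± 3.92 CPM over the EV tumours, but not with limma-voom on recovered reads (adjusted p = 0.1031). Tumours 5 and 6 were also the 2 lowest TAZ-4SA tumours for FTH1, and their libraries were the 2 shallowest, at 3299325 and 3144861 reads. Endothelial markers summed to at most 14.0 CPM across TAZ-4SA tumours and 17.8 CPM in EV, with VWF the most abundant at 2.46 ± 3.96 CPM in TAZ-4SA against 9.37 ± 2.25 CPM in EV, EMCN at 0 reads in all TAZ-4SA tumours and ERG called lower, a call lost without EV tumour 1, 2 or 3. No erythroid marker of the 8 listed had a row. For these markers too, reads of the human tumour cells and mouse host reads counted under human symbols cannot be told apart. The part of either in the iron gene differences was not tested.

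**Figure D5:**
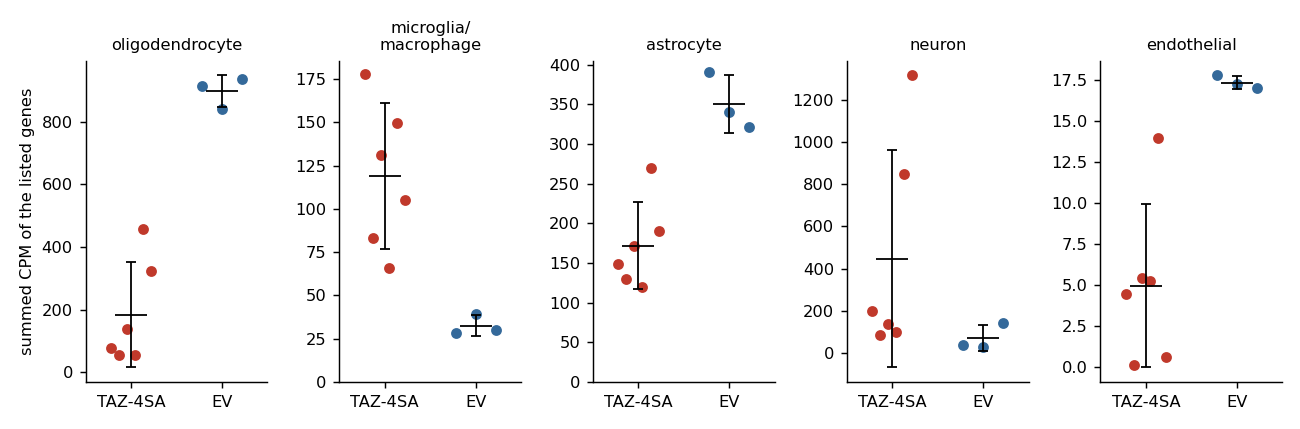
Summed CPM of the listed markers of 5 cell types in each tumour; points are tumours and the black line and bars give mean ± SD, with TAZ-4SA (n = 6) left of EV (n = 3). Oligodendrocyte markers sum to at most 458 CPM in TAZ-4SA tumours and at least 839 CPM in EV tumours, and neuron markers are highest in TAZ-4SA tumours 5 and 6.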

How the data were processed

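Libraries were made with a SMART-Seq kit and Nextera XT, per the labels' protocols, a chemistry that does not keep the strand. HISAT2, edgeR and GRCh38 are listed, with no role given, per the submitters' processing notes. How genes were counted or filtered, and whether mouse reads were set apart, is not given in the sources used. The values the authors deposited are log2 CPM, a unit read from the values, for 18364 genes. With the common minimum of 0.145 CPM removed, 100% of values under 5000 reads were whole multiples of 1 read within 0.1 read, so reads were recovered. The protocol names no molecular identifiers, so reads are not independent molecules and a floor of 3 reads covers counting error only.

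Groups came from the labels, which do not tie tumours to animals, so a p-value reflects only how these samples vary, which may be technical. No pair within a group counted as 1 library, since even the closest, EV tumours 1 and 2, differed by 18.6 in chi-square divided by its degrees of freedom. The deposited log2 values of the 15578 genes whose mean reached 1 CPM, prior included, were fitted in limma 3.58.1 under R 4.3.3, using its trend and robust options, and p-values were adjusted by Benjamini-Hochberg at 0.05. A positive fold change means higher in TAZ-4SA. The iron genes and all lists were chosen with earlier results of these data known. The genes named were the 9 iron genes, up to 4 called genes in each direction per partner list, and for marker lists the called genes and the most abundant. FBXL5, TFR2, CP, HMOX1, MOG, MOBP, P2RY12, TMEM119, PTPRC, TYROBP, EMCN and the genes overlapping or copying an iron gene were named besides. Levels per kilobase use the median length of the GENCODE release 29 principal transcripts of a gene, the hairpin search the longest of them, and coordinates of genes come from RefSeq on GRCh38.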

Additional observations from a re-analysis of the deposited data

Results flagged for a closer look

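TF stood at 12.1 CPM in TAZ-4SA tumour 4, far above the other 5 tumours of its group, which held at most 1 read. ERG, an endothelial marker, stood at 0.840 CPM in TAZ-4SA tumour 5, which is 3 reads in a library of 3299325, and had 0 reads in the other 5. Both were picked out because 1 tumour lay far from the rest of its group on the log2 scale, among 30 genes examined in this way. Chance flags about 1 in 20 groups where values are not tied. With 5 tumours tied at 0 reads, any read in the remaining tumour is flagged, so that rate does not hold for ERG. TF had 4 tumours tied at 0 reads, so the rate is not exact there either. The cause of either value was not tested.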

How the results depend on the processing

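TF was called lower and TFRC higher under all 22 alternatives except for TFRC in the fit with the replicate block below, with log2 fold changes of -10.12 to -5.85 for TF and 1.90 to 2.33 for TFRC. Over all genes, leaving out 1 tumour gave 799 to 1685 higher and 852 to 2688 lower calls, and array weights gave 2531 and 5630. Lower calls numbered 3384 with no filter, 967 at a mean of at least 10 CPM and 3646 with limma-voom on recovered reads, an alternative added after seeing the data. Of the iron genes, 1 to 3 were called higher when 1 tumour was left out and 4 with array weights, where FTH1 and SLC39A14 joined TFRC and IREB2. FTL had a log2 fold change between -0.23 and 0.025 without 1 tumour, 0.12 after quantile normalization and 0.031 in tumours 1 to 3 of each group, with or without the replicate block. The replicate numbers did not pair the tumours, with correlations of deviations of -0.000583, -0.0322 and -0.00873 for numbers 1, 2 and 3. Fits limited to tumours 1 to 3 of each group called 562 genes and 1 iron gene (FTH1, limma adjusted p = 0.03889) higher with the replicate block, and 1244 genes and 3 iron genes without it. TFRC and IREB2 had log2 fold changes of 2.07 and 1.24 in both fits, with limma adjusted p of 0.06291 and 0.1061 with the block and 0.01589 and 0.02113 without it. The causes were not tested. Without TAZ-4SA tumours 2, 3 and 4, which listed the most genes at 0 reads, TFRC, IREB2 and TF kept their calls. Among the other named genes, quantile normalization ended the calls of BMP6, PCBP1 and ERG, and limma-voom those of SYT1 and GJA1. The replicate block ended those of SLC22A17, PCBP1, TAX1BP1, ACO1, EPAS1, PFN2, ALAD, MAG, CD68, GJA1 and SYT1. Tumours 1 to 3 without the block ended those of FURIN, EPAS1 and GJA1. SLC22A17 lost its call with a prior of 0.1 CPM, no filter, the filter at 10 CPM or no robust option. TMM scaling ended the calls of PCBP1 and GJA1, and median-of-ratios scaling those of SLC25A37 and GJA1. Leaving out TAZ-4SA tumours 2, 3 and 4 ended those of SLC22A17, FURIN, ERG and GJA1. Fits with 2 other count tools were planned for recovered reads and not run, and limma-voom was run on those reads in their place. Depth limits what 0 reads in a single library can show for MOG and P2RY12, whose EV levels lay under the floor of most TAZ-4SA libraries.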

Other observations

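RefSeq promoters (GRCh38.p14, 250 bases before to 50 after each start) matched 7 of the 9 iron genes, the others being FTH1 and SLC39A14. The TEAD letters GGAATG, searched on both strands, were present for 1 of these 7, TF, the gene that was lower in TAZ-4SA, beside 14.0% of all 35116 promoters. The antioxidant response element letters TGACNNNGC were present for NCOA4 alone, beside 13.3% of all promoters, and the E-box letters CACGTG for none, beside 7.3%. A match is a description and not a binding site, and these windows leave out distal enhancers.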
